A study of Mus musculus with 1087 samples.

Results

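Endothelial cluster 2 is a set of single cells that the submitters' labels place in the class EC and in cluster 2 of a clustering made without CD27+ cells. Its cells at E11.5 from the Venus gates named intermediate (G2VInt) and low (G2VLo) were compared. They were chosen from the labels alone and made up 16.4% of the 1087 cells of the series. G2VInt gave 54 of them, in 3 blocks of library numbers with 28, 7 and 19 cells, and G2VLo gave the rest, in 5 blocks with 31, 39, 22, 21 and 11 cells. They were 19.4% of the G2VInt cells of that day (exact Clopper-Pearson 95% interval 14.9 to 24.5) and 26.3% of the G2VLo cells (22.4 to 30.5). In the other clustering in the labels, which includes CD27+ cells, 70.4% of the G2VInt and 85.5% of the G2VLo members were again in a cluster numbered 2. Most of the rest were in its cluster 1, which held 15 of the 54 G2VInt members and 16 of the more numerous G2VLo members. The gates thus differed in their share of such cells. An alternative given below keeps only the members in cluster 2 of both clusterings.

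All cells came from Gata2V/+ embryos on the C57BL/6HsdJOla background, which carry a Venus allele of Gata2 beside a wild-type allele. The aorta-gonad-mesonephros (AGM) region was dissected together with the trunk part of the vitelline and umbilical arteries, digested with collagenase and stained for CD31, cKit and CD27. The sample names mark every cell as high for Kit and give the day and the Venus gate. No embryo, litter or sort is named, so each gate is 1 sample, its cells are not replicates, and no test was run.

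In the AGM region, hemogenic endothelial cells of the aorta lose endothelial features and bud into the lumen as clusters that hold the earliest hematopoietic stem cells. Gata2 is a zinc finger transcription factor that this transition and the stem cells themselves require. It is also active in endothelium that stays vascular, including lymphatic endothelium, where it acts beside Prox1.

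The G2VInt libraries were the deeper ones. They held a median of 2266366 reads on genes per cell (635293 to 4491293), against 656373 (188246 to 1350593) in G2VLo, and 12104 against 9789 genes with a read. The median share of mitochondrial reads was 3.28% in G2VInt and 7.22% in G2VLo. The blocks named above are runs of 96 consecutive library numbers from the sample names, given below from the lowest-numbered run to the highest. The numbers of the gates do not mix, so gate and library block cannot be told apart, and the runs show the spread inside a gate without being replicates. Sex differed between runs among cells with reads of either Xist or Y-linked genes but not both. Of such cells, 100% were male in the lowest-numbered G2VInt run and 14.3% (1 male and 6 female cells) in the highest-numbered one. The G2VLo runs spanned 14.3% to 100%. Reads of both kinds were held by 28 of the 54 G2VInt cells and by 27 of the more numerous G2VLo cells. These cells have no sex in this count, and why they held both was not tested.

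Levels are given as CPM, the reads of a gene summed over the cells of a gate or run and scaled to the same total of 1000000, and shares of cells after each cell was thinned to 100000 reads, a depth that every cell used here reached. Intervals on levels are exact Poisson 95% intervals. Intervals cover counting error only, and PCR copies, which were counted as reads, make them too narrow.

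The cluster carried endothelial markers in both gates. All 23 pan-endothelial genes on a list of markers were measured, with a median of 100% of thinned cells holding a read of a member in either gate, and the list summed to 15817 CPM in G2VInt (14725 to 16785 over the runs) and 13128 CPM in G2VLo (12256 to 13620). Cldn5, a tight junction protein of endothelium, stood at 2118 and 1578 CPM, and Kdr, the main VEGF receptor, at 846 and 602 CPM. Of 15 pan-hematopoietic genes 5 were measured, and the list summed to 544.4 CPM in G2VInt (520.6 to 563.7 over the runs) and 460.4 CPM in G2VLo (440.1 to 538.8). Most of that came from Lcp1 (290.2 and 247.2 CPM), Arhgdib (97.1 and 97.8 CPM), Laptm5 (72.6 and 52.01 CPM) and Cyba (58.1 and 48.2 CPM), while Ptprc, the CD45 gene that defines leukocytes, was at 0.583 and 0.351 CPM. The 12 megakaryocyte genes summed to 226.6 and 264.5 CPM, of which Rap1b held 207.3 and 243.3 CPM, and the 10 neural genes to 215.2 and 189.8 CPM, of which Nes held 209.9 and 187.2 CPM. The 10 epithelial genes summed to 1.99 and 3.26 CPM. The 12 macrophage genes summed to 50.0 CPM in G2VInt (44.5 to 56.6 over the runs) and 49.5 CPM in G2VLo (38.9 to 64.1). The 12 erythroid genes summed to 87.4 CPM (18.03 to 426.4 over the runs) and 21.4 CPM (5.56 to 47.7), led by the embryonic globin Hbb-y at 43.9 and 8.93 CPM. The part of these markers in the results was not tested. The authors formed the cluster from these same counts, so its endothelial levels are a description.

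Gata2 (chr6:88193891-88207032, plus strand, GRCm38, protein coding) was higher in the cells sorted for more Venus. It stood at 52.6, 54.1 and 59.5 CPM in the 3 G2VInt runs and at 35.6, 32.97, 26.5, 44.7 and 31.3 CPM in the 5 G2VLo runs. Every G2VInt run lay above every G2VLo run. Summed over cells the levels were 55.3 CPM (53.96 to 56.6) and 34.7 CPM (33.5 to 36.02), a ratio of 1.59 or 0.67 on the log2 scale. Thinned cells with a read made up 92.6% of G2VInt and 68.5% of G2VLo. The gate was set on a reporter of this gene, so the direction was chosen by the sort. The median gene was itself 0.17 higher in G2VInt on the log2 scale, and against measured genes of like GC content the Gata2 ratio was 0.32. In single cells the gates overlapped, with the middle 50% of cells at 25.2 to 75.8 CPM in G2VInt and at 4.78 to 56.3 CPM in G2VLo.

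Kit and Pecam1, the measured genes of the other sorted proteins, were closer. Kit, the receptor used in the sort, stood at 138.3 and 133.4 CPM with overlapping runs, and Pecam1, which encodes CD31, at 914 and 807 CPM, also overlapping. Cd27 was at 1.54 and 0.775 CPM, a log2 ratio of 0.99, but below the limit for a measured gene.

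**Figure D1:**
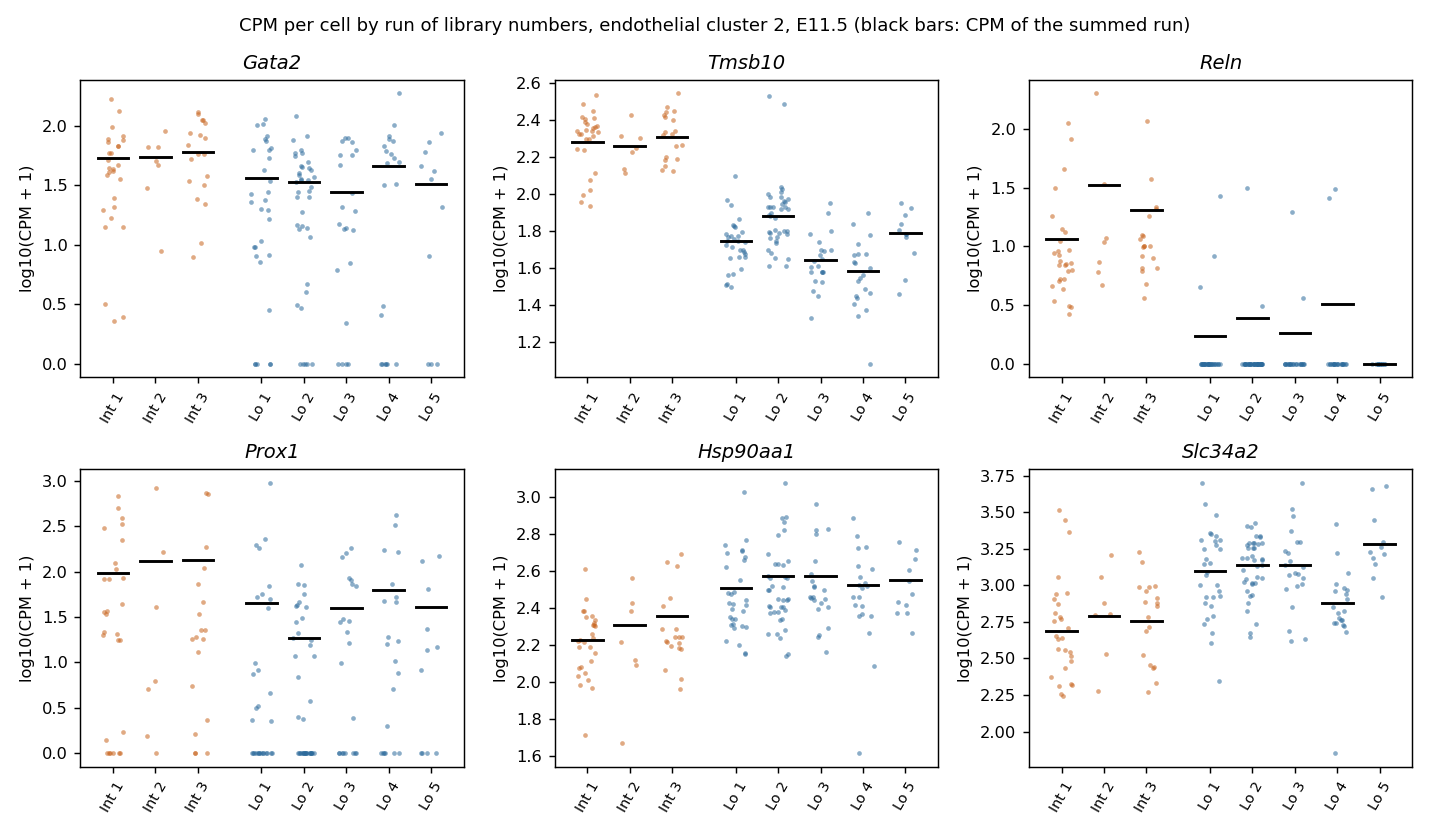
CPM of 6 genes in each cell of both gates, drawn as log10(CPM + 1) by run of library numbers, with G2VInt runs in orange, G2VLo runs in blue and a black bar for the CPM of each summed run. Gata2 overlaps between the gates cell by cell, whereas the middle 50% of cells for Tmsb10 (159.8 to 249.7 CPM in G2VInt, 39.7 to 72.2 CPM in G2VLo) do not meet.

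A gene counted as measured when the mean of the gates was at least 5 CPM and a read was found in at least 10% of thinned cells. Of 10651 measured genes, 1.72% were at least 2-fold higher in G2VInt and 37 (0.347%) at least 2-fold lower. With no overlap between runs as well, 0.939% were higher and 19 genes (0.178%) lower. The split rests on the scale, since 73.2% of measured genes had a ratio above 1. Relative to the median gene, 97 of the 10627 genes with a known GC content were 2-fold higher and 77 were 2-fold lower, and after adjustment for GC content 82 and 70. At any fold, every G2VInt run lay above every G2VLo run for 12.5% of measured genes and below for 2.23%.

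GC content moved with the ratio. In the decile of genes with the lowest GC content the median log2 ratio relative to all genes was -0.21, and in the highest decile 0.21. Genes at least 2-fold higher in G2VInt had a median GC content of 54.6%, those at least 2-fold lower 43.6%, and all measured genes 49.4%. The slope was similar in endothelial cluster 1 (-0.23 in the lowest decile, 0.25 in the highest) and in cluster 7 of the class labelled HC1 (-0.18 and 0.17), so it is not limited to the cells of cluster 2. Its part in the ratios of single genes was not tested, and GC-adjusted values are given only for some genes and lists. The adjustment sets each gene against the median ratio of measured genes of like GC content.

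**Figure D2:**
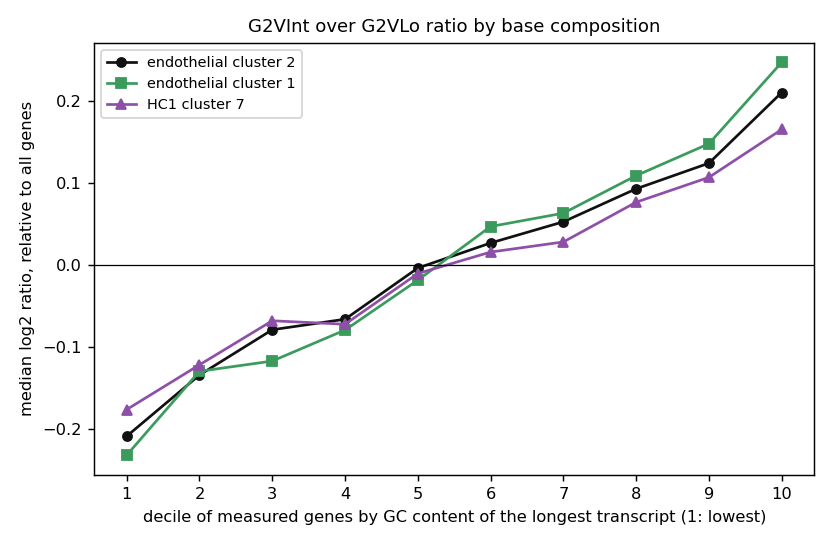
Median log2 ratio of CPM, G2VInt over G2VLo, relative to the median of all measured genes, for deciles of genes ordered by GC content of the longest transcript, in 3 clusters at E11.5. All 3 lines climb from the lowest to the highest decile, in cluster 2 from -0.21 to 0.21.

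Reln and Tmsb10 were among the 12 genes with the highest ratios in a ranking that passed over mitochondrial and ribosomal protein genes. Reln (chr5:21884454-22344702, minus strand, protein coding), which encodes the secreted glycoprotein reelin, stood at 10.6, 32.1 and 19.2 CPM in the G2VInt runs and at 0.711, 1.45, 0.818, 2.25 and 0 CPM in the G2VLo runs. Every one of the 54 G2VInt cells held a Reln read, against 9 cells, or 7.26% (3.37 to 13.3), of G2VLo. After thinning the shares were 64.8% and 4.03%, and the summed levels of 16.2 CPM (15.5 to 16.9) and 1.22 CPM (0.996 to 1.49) differed 13.3-fold. Tmsb10 (chr6:72957347-72958748, minus strand, protein coding), which encodes an actin-binding thymosin, stood at 190.6, 181.5 and 202.6 CPM in the G2VInt runs. In the G2VLo runs it stood at 54.5, 75.3, 43.2, 37.2 and 60.8 CPM. The G2VInt runs lay within a narrow band well above all G2VLo runs, and the summed levels of 193.8 and 57.3 CPM differed 3.38-fold.

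Neither difference belonged to cluster 2 alone. In endothelial cluster 1, Reln was at 7.49 CPM in G2VInt and 0.357 CPM in G2VLo, with a read in 68 of 68 and 5 of 60 cells. In HC1 cluster 7, whose cells were rich in Kit and in the hematopoietic phosphatase gene Ptpn6, Reln was at 13.4 and 0.0318 CPM, with a read in 63 of 63 and 1 of 71 cells. Tmsb10 was at 193.5 and 49.8 CPM in cluster 1 and at 38.2 and 10.02 CPM in HC1 cluster 7. Both differences were thus present in cells of other clusters from the same gates and library blocks. Among other cells of endothelial cluster 2, Reln stood at 0.523 CPM in 4 G2VInt cells of E10 and at 1.17 CPM in 8 of E11, near the G2VLo level, while Tmsb10 stood at 188.6 and 153.9 CPM, near the E11.5 G2VInt level. In the 9 CD27+ cells that fell in cluster 2 of the other clustering, Tmsb10 was at 83.7 CPM. Reln was at 10.5 CPM there, with a read in 1 of the 9 thinned cells, so it is not a level of the group. Of 10 other genes of the reelin pathway that were measured, none was 2-fold apart. Among all measured genes 1.72% were 2-fold higher and 0.347% lower, so this count says little about the pathway. Vldlr, a reelin receptor, stood at 11.9 and 9.42 CPM.

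Several other genes with high ratios varied from run to run. Cldn11, a claudin of tight junctions, stood at 11.2, 10.04 and 56.6 CPM in the G2VInt runs against 8.10, 2.36, 1.55, 2.77 and 1.73 CPM in the G2VLo runs. Its 7.28-fold ratio leaned on the highest-numbered G2VInt run, and in female cells alone (8 against 39 cells) the log2 ratio was -0.64. The Cldn11 log2 ratio of 2.86 became 1.55 without that run and up to 3.60 without the lowest-numbered run of either gate. Emp1, an epithelial membrane protein gene, stood at 21.9, 20.9 and 80.7 CPM against 2.99 to 15.7 CPM, and its log2 ratio of 1.95 became 0.97 without the highest-numbered G2VInt run and 2.57 without the lowest-numbered one. Vegfb, a ligand of the VEGF receptor Flt1, was more even, at 17.2, 15.2 and 28.6 CPM against 2.11 to 6.73 CPM, and was 3.76-fold higher. Col26a1, a collagen gene, was at 33.2 and 9.13 CPM. Ptpn6 was at 15.7 and 4.00 CPM, Apba2, an adaptor that binds the amyloid precursor protein, at 14.8 and 3.96 CPM, and Cradd, a death domain adaptor, at 13.4 and 4.25 CPM. The Ptpn6 ratio leaned on 1 G2VInt cell at 424.7 CPM. Its log2 ratio of 1.97 became 1.24 without the highest cell of each gate. The Apba2 log2 ratio of 1.90 became 1.25 without the lowest-numbered G2VInt run and 2.68 without the G2VLo run of 39 cells. For each of these genes all G2VInt runs lay above all G2VLo runs. Lrrc56 (11.8 and 3.44 CPM) and the glypican Gpc1 (12.2 and 4.02 CPM) share exon sequence with genes on the opposite strand, Lmntd2 and Ankmy1, and the strand setting of the counting is not given in the sources used here.

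**Figure D3:**
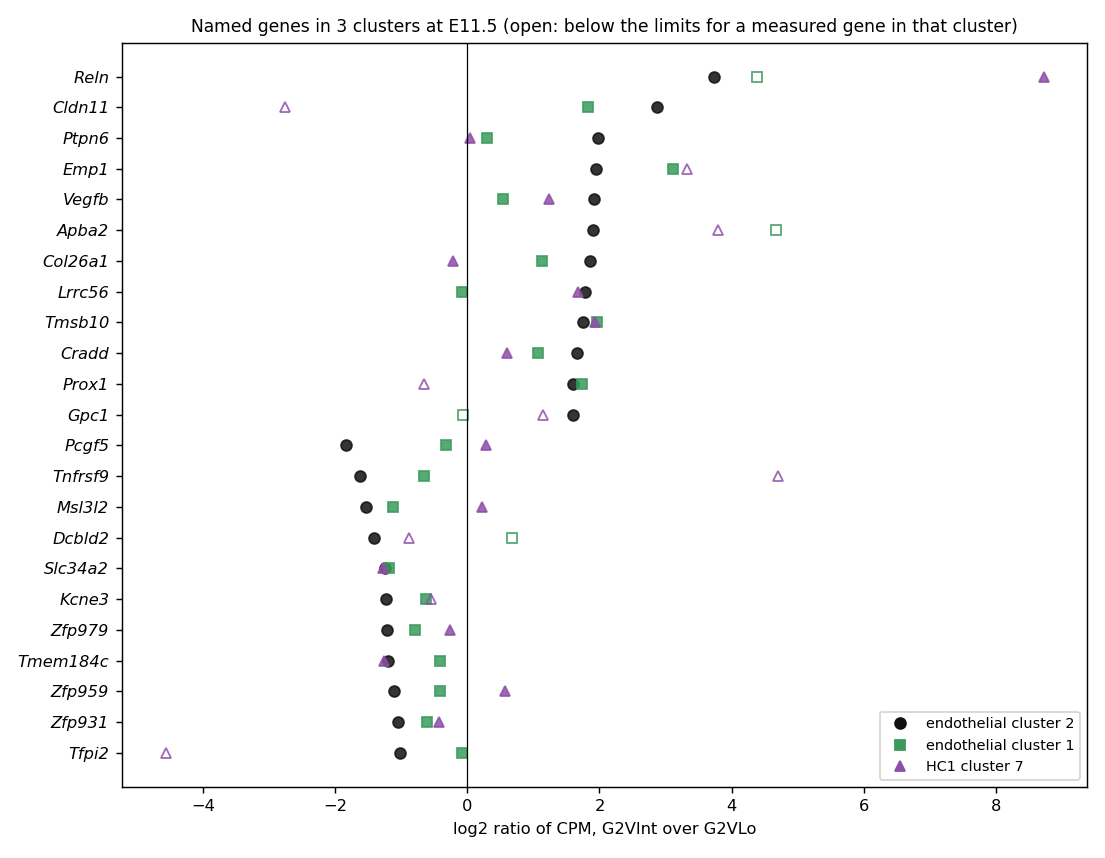
Log2 ratio of CPM, G2VInt over G2VLo, for the 12 highest and 11 lowest genes that met the naming rule, in endothelial cluster 2 (circles), endothelial cluster 1 (squares) and HC1 cluster 7 (triangles), with open symbols where a gene was below the limits for a measured gene in that cluster. Tmsb10 (1.76, 1.96 and 1.93) and Slc34a2 (-1.25, -1.18 and -1.28) lie at nearly the same place in all 3 clusters, whereas Ptpn6 (1.97, 0.29 and 0.04) does not. Without the highest cell of each gate the Ptpn6 log2 ratio in cluster 2 was 1.24.

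Fewer genes that met the naming rule were lower in G2VInt, 11 against 67 higher. The rule uses unadjusted ratios, and 73.2% of all measured genes had a ratio above 1. With TMM scaling, 0.385% of measured genes were 2-fold higher with runs apart and 0.376% lower. After GC adjustment these shares were 0.31% and 0.329%. Each of the 11 lower genes had at least 10 CPM in G2VLo. Pcgf5, a Polycomb group gene, stood at 4.35, 1.67 and 1.91 CPM in the G2VInt runs and at 14.8, 6.65, 17.5, 10.97 and 9.21 CPM in the G2VLo runs, 3.57-fold lower in sum, a log2 ratio of -1.84 that became -2.61 without the lowest-numbered G2VInt run. Tnfrsf9, which encodes the costimulatory receptor 4-1BB, was at 5.21 CPM in sum and 3.07-fold lower than in G2VLo. Its log2 ratio of -1.62 became -0.87 without the lowest-numbered G2VInt run, -2.32 without the highest-numbered one and 1.06 in strict female cells. Kcne3, a potassium channel subunit gene, was at 63.4 CPM and 2.34-fold lower, with a wide span in G2VInt (94.02, 8.63 and 36.6 CPM over the runs) and a log2 ratio of -2.32 without the lowest-numbered G2VInt run in place of -1.22. The transmembrane gene Tmem184c was steady within each gate, at 16.5, 20.4 and 16.1 CPM against 33.2 to 40.7 CPM. Zfp979, Zfp959 and Zfp931, which encode zinc finger proteins, were 2.32-fold, 2.16-fold and 2.08-fold lower (Zfp959 had a log2 ratio of 0.08 in female cells by the larger of the sex signals), and their transcripts have a low GC content (34.6%, 39.4% and 33.2%). Msl3l2 (3.52 and 10.1 CPM, with a log2 ratio of -2.26 in place of -1.53 without that G2VInt run), Dcbld2 (3.90 and 10.4 CPM) and the protease inhibitor gene Tfpi2 (5.13 and 10.4 CPM) completed the genes that met the rule. Dcbld2 shares exon sequence with St3gal6 on the opposite strand.

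Slc34a2 (chr5:53038081-53071664, plus strand, protein coding), which encodes a sodium-phosphate cotransporter, was the most abundant of the lower genes, and its level fell with sequencing depth within each gate. It stood at 487.9, 614.2 and 569.4 CPM in the G2VInt runs and at 1243, 1380, 1367, 759.7 and 1919 CPM in the G2VLo runs. All G2VInt runs lay below all G2VLo runs. In reads per cell the order was the other way, with a median of 1121 in G2VInt and 859.5 in G2VLo. Within G2VLo the level of the summed cells was 2345 CPM in the 27 cells under 500000 reads, 1163 CPM in the 89 cells of 500000 to 1000000 reads and 656.4 CPM in the 8 cells of 1000000 to 2000000 reads. Within G2VInt it was 2740 CPM in the 3 cells of 500000 to 1000000 reads, 940 CPM in the 17 cells of 1000000 to 2000000 reads and 372.6 CPM in the 34 deeper cells. In both depth ranges that held cells of both gates, G2VInt was therefore the higher gate, opposite to the sums. Over 500000 to 2000000 reads together the log2 ratio was -0.03 in place of -1.25, with 17 of 20 G2VInt cells in the deeper range and 89 of 97 G2VLo cells in the shallower one. Tmsb10 remained higher in G2VInt in these cells, as the plot of level against depth shows.

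**Figure D4:**
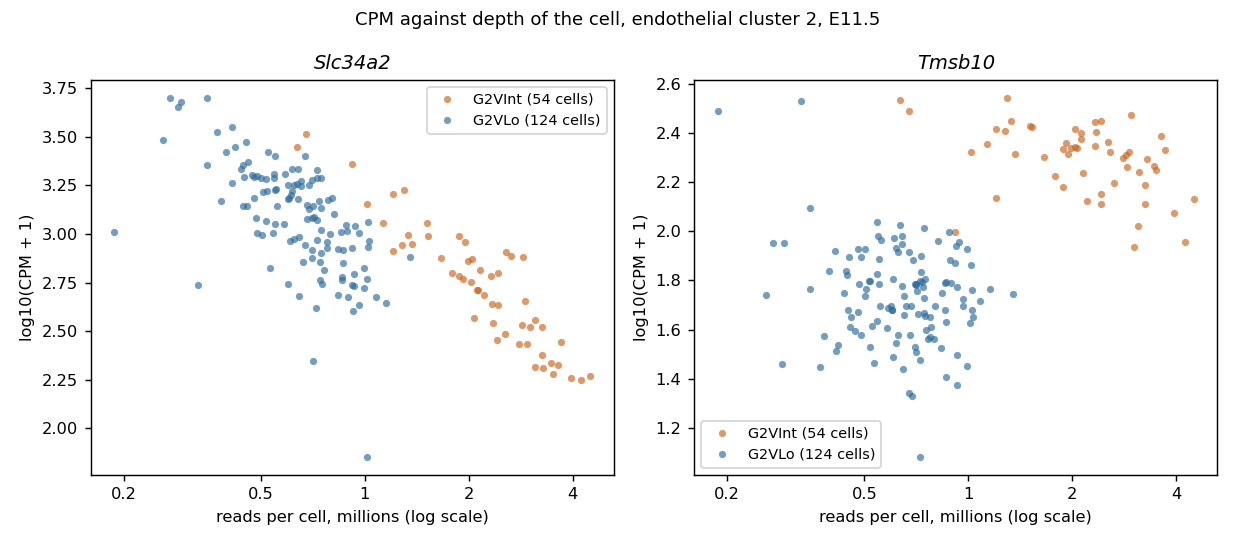
Level of Slc34a2 and Tmsb10 in each cell as log10(CPM + 1) against reads per cell on a log axis, with the G2VInt cells in orange and the G2VLo cells in blue. Slc34a2 falls as depth rises in each gate, with the G2VInt cells higher at like depth, whereas Tmsb10 forms an upper cloud, mostly of G2VInt cells, and a lower cloud, mostly of G2VLo cells.

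Gene lists were then read against the median of all measured genes, above which 50% of genes lie by construction. Heat shock genes lay below it. Of 15 genes, 14 were measured and all 14 lay below the median gene, with a median relative log2 ratio of -0.50 (-0.42 after GC adjustment). Every G2VInt run lay below every G2VLo run for 6 of them, against 2.23% of all measured genes. These genes encode chaperones that fold proteins, and many are switched on by the factor Hsf1, which binds inverted repeats of GAA. The promoters of 5 of the 7 members that held such a repeat are shown so that the matches can be read. They were picked for holding a match and are the 250 bases before the start site, 5′ to 3′ on the gene's strand, from RefSeq on GRCm38.p6, with each match to GAANNTTC or TTCNNGAA in capitals (each motif reads the same on both strands, and the 2 forms can overlap):
Hspe1: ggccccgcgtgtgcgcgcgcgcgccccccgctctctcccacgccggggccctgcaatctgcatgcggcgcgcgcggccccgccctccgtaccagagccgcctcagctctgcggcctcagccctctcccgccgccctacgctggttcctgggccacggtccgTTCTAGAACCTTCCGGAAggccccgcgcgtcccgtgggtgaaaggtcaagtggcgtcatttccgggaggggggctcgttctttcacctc
Hsph1: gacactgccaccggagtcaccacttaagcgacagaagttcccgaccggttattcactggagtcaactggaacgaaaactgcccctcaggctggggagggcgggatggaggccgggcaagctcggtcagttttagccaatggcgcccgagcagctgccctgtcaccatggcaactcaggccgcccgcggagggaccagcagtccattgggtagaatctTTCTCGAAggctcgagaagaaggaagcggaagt
Dnaja1: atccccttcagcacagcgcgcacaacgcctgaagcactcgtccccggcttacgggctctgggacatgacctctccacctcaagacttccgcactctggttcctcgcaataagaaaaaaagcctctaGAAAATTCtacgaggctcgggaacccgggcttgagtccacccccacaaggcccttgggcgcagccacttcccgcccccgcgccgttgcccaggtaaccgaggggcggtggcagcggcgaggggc
Hspb1: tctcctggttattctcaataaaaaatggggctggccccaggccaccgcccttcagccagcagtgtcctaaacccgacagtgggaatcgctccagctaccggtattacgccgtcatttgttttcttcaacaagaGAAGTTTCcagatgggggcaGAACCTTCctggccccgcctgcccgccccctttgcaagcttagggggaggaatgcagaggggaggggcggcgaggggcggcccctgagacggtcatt
Hspa1a: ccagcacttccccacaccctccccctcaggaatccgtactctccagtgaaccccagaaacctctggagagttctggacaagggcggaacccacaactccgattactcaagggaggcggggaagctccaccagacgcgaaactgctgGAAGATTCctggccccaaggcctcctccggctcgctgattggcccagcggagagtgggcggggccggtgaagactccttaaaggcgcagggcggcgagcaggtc
They lie at chr1:55087898-55088147 (plus), chr5:149636337-149636586 (minus), chr4:40722218-40722467 (plus), chr5:135887669-135887918 (plus) and chr17:34972157-34972406 (minus). Of the 15 genes, 11 had a promoter in the table. Of these, 7 held a match at a listed start site, and the other 4 held none. Among all 32851 promoters, from 27025 genes, 12.8% held a match. A gene can have more than 1 start site, so the count per gene and the share per promoter are unlike measures. A match describes the letters and does not show a bound site.

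Hsp90aa1, the stress-inducible HSP90 gene, stood at 168.3, 201.7 and 227.7 CPM in the G2VInt runs and at 321.9, 372.7, 372.5, 333.8 and 356.4 CPM in the G2VLo runs. Its constitutive partner Hsp90ab1 stood at 4783, 4188 and 4569 CPM against 5622, 6004, 5556, 6235 and 6169 CPM. For both genes the runs of the gates lay apart. Hsph1, whose product recharges HSP70, was at 144.3 and 226.5 CPM, and Dnaja1, an HSP70 cochaperone gene, at 102.8 and 139.2 CPM. Hspa5, the chaperone of the endoplasmic reticulum, was at 945.7 and 1174 CPM and the constitutive Hspa8 at 427.7 and 496.4 CPM, again with runs apart. Hspa1a, at 112.3 and 162.8 CPM, overlapped between runs, and its count is uncertain because Hspa1b is a near-identical copy. The smallest difference was that of the mitochondrial chaperonin gene Hspd1, at 175.4 and 168.1 CPM. Hsp90aa1 was lower in G2VInt in the comparison clusters too, at 174.8 and 360.2 CPM in endothelial cluster 1 and at 310.1 and 689.8 CPM in HC1 cluster 7.

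**Figure D5:**
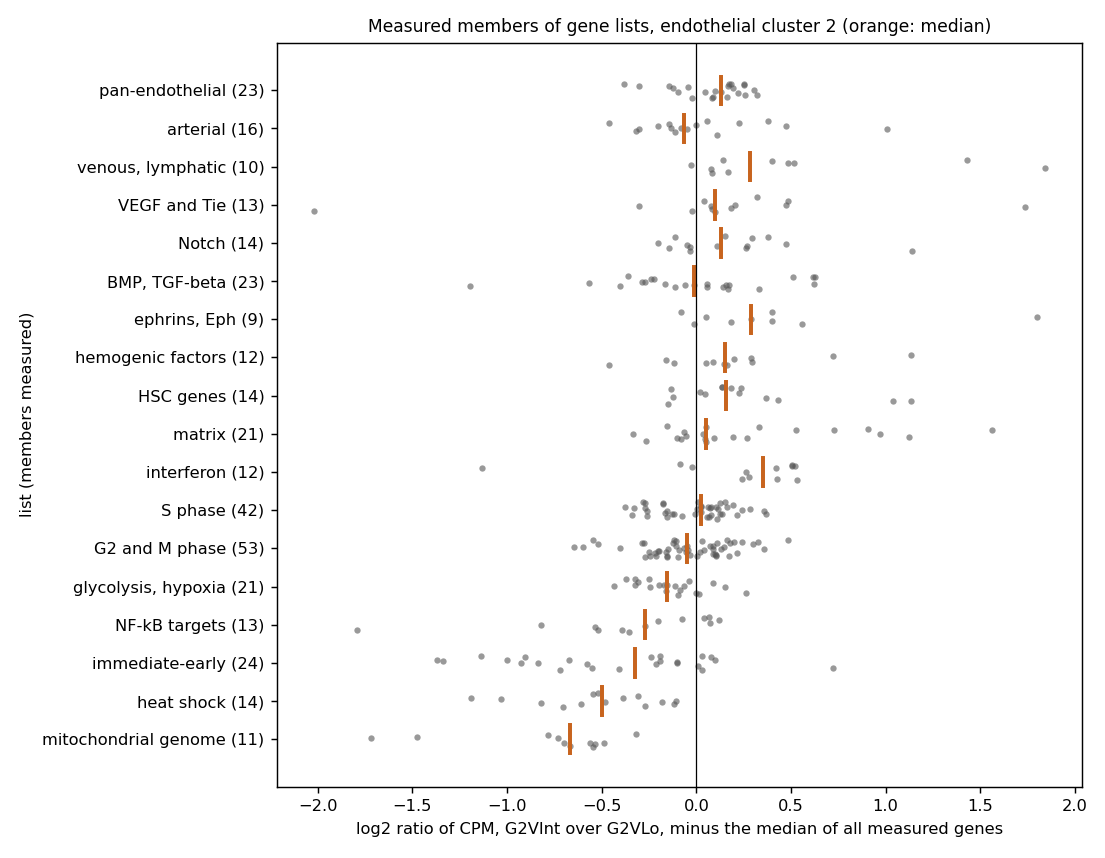
Measured members of 18 gene lists (grey points) by log2 ratio of CPM, G2VInt over G2VLo, minus the median of all measured genes, with each list's median in orange and its number of measured members in brackets. The heat shock and mitochondrial genome lists lie wholly below 0, with medians of -0.50 and -0.67, while the cell cycle lists straddle it.

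Transcripts of the mitochondrial genome were lower in G2VInt. All 11 that were measured lay below the median gene, with a median relative log2 ratio of -0.67 (-0.43 after GC adjustment). Every G2VInt run lay below every G2VLo run for 9 of them, against 2.23% of all measured genes. The ribosomal RNA mt-Rnr2 stood at 16420, 18295 and 16024 CPM in the G2VInt runs against 45949 to 51056 CPM in the G2VLo runs, and mt-Rnr1 at 946.3 and 2340 CPM in sum. Of the messenger RNAs, mt-Co1, a subunit of cytochrome oxidase, was at 3818 and 5513 CPM. The nuclear genes of the respiratory chain did not share this, with 36 of 85 above the median gene and a median of -0.03.

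Immediate-early genes, which are induced rapidly by growth factors, stress and tissue dissociation, were lower in the sums but not in every subset of cells. Of 24 measured members 18 lay below the median gene, with a median relative log2 ratio of -0.32. Fos stood at 112.4, 22.1 and 196.6 CPM in the G2VInt runs and at 334.7, 193.9, 284.5, 250.7 and 244.4 CPM in the G2VLo runs, which overlap. Atf3 was at 52.9 and 121.4 CPM and Nr4a1 at 44.5 and 100 CPM, also overlapping, while Klf6, at 202.5 and 336.8 CPM, had runs apart. The list median was 0.08 in the higher-numbered libraries of both gates, 0.03 in cells of 500000 to 2000000 reads and 0.04 in female cells by the larger of the sex signals. The direction of this list therefore depended on which cells entered. Genes that respond to blood flow and stress were mixed, with 9 of 14 below the median gene, against 50% of all genes. Their median relative log2 ratio was -0.21 (-0.33 after GC adjustment). Every G2VInt run lay above every G2VLo run for 2 of them and below for 0. The list summed to 1663 CPM in G2VInt (1467 to 2576 over the runs) and 1414 CPM in G2VLo (1282 to 1604). Ccn1, a matrix-associated signaling protein gene, was at 115.6 CPM in sum, 2.00-fold lower and with overlapping runs, and Edn1, the endothelin gene, at 21.5 and 33.4 CPM. Klf2, the flow-induced factor, was at 64.6 and 53.5 CPM.

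Venous and lymphatic genes lay mostly above the median gene. Of 10 measured members 9 did so, with a median relative log2 ratio of 0.28 (0.23 after GC adjustment). At least 2-fold higher in G2VInt were 2 of the 10, against 1.72% of all measured genes. Every G2VInt run lay above every G2VLo run for 3, against 12.5% of all measured genes. Prox1 (chr1:190118035-190170714, minus strand, protein coding), which specifies lymphatic endothelium, stood at 94.8, 128.6 and 133.2 CPM in the G2VInt runs and at 44.1, 17.5, 39.1, 62.4 and 39.5 CPM in the G2VLo runs. All G2VInt runs lay above all G2VLo runs, and the sum was 3.03-fold higher. Lyve1, the hyaluronan receptor of lymphatic endothelium, was at 33.4, 108.9 and 180.2 CPM against 54.2, 11.1, 3.52, 28.01 and 0.959 CPM, which overlap. Both genes were higher in G2VInt in endothelial cluster 1 too, Prox1 at 42.3 and 12.7 CPM and Lyve1 at 140.4 and 33.7 CPM. In HC1 cluster 7 both were low and went the other way, at 3.24 and 5.09 CPM and at 1.07 and 4.1 CPM. Nrp2, a coreceptor of VEGF-C, at 562 and 357.1 CPM, and the scavenger receptor gene Stab1, at 736 and 457.6 CPM, had runs apart. The venous receptor Ephb4 was at 297.6 and 200.3 CPM, and the venous factor Nr2f2 at 81.2 and 64.2 CPM. In thinned cells, reads of both Prox1 and Lyve1 were found in 29.6% of G2VInt and 12.9% of G2VLo cells. In female cells by the strict rule (8 against 39 cells) Prox1 and Lyve1 had log2 ratios of -0.91 and -2.02 and the list median was -0.08, while in male cells (18 against 58) Prox1 had 2.54. Foxc2, a forkhead factor of lymphatic valves, was at 85.7 and 43.6 CPM with runs apart, and its log2 ratio of 0.97 became 0.57 after GC adjustment.

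Arterial genes showed no common direction, with 6 of 16 above the median gene and a median of -0.07. Sox17, an arterial and hemogenic factor, was at 309.1 and 275.3 CPM, Dll4, the arterial Notch ligand, at 127.9 and 122.8 CPM, and the target gene Hey1 at 58.4 and 59.6 CPM. Gja4, a gap junction gene, had a log2 ratio of 1.18, but its runs spanned 31.4 to 558 CPM in G2VInt and 0.0818 to 181.8 CPM in G2VLo. Of 14 measured Notch pathway genes 8 lay above the median gene, and 6 lay above 0 after GC adjustment. Notch3, at 15.2 and 6.11 CPM, was the only member past 2-fold, with overlapping runs. Among VEGF and Tie genes, 10 of 13 lay above the median gene: Kdr and Tie1 (912 and 714 CPM) had runs apart, and Esm1, a tip cell gene, was at 5.96 and 21.5 CPM with overlapping runs and a log2 ratio of 0.57 against G2VLo numbers above the CD27+ block.

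Factors of hemogenic endothelium lay mostly above the median gene, in 9 of 12 measured members. The list median was 0.15 (0.08 after GC adjustment). At least 2-fold higher was 1 of them, against 1.72% of all measured genes. Every G2VInt run lay above every G2VLo run for 3, against 12.5% of all measured genes. Lyl1, a basic helix-loop-helix factor, stood at 122.3 and 65.9 CPM with runs apart, and its log2 ratio of 0.89 became 0.49 after GC adjustment. Adgrg1, the adhesion receptor GPR56, was at 19.6 and 7.91 CPM with overlapping runs. Its log2 ratio of 1.31 became 0.71 without the highest cell of each gate. Lmo2, a bridging factor that binds Gata2 and Tal1, was at 153.9 CPM with a log2 ratio of 0.37 and runs apart, and Cbfb, the partner of Runx1, at 86.5 and 105.7 CPM. Runx1, the factor that drives the endothelial to hematopoietic transition, was at 1.17 and 1.26 CPM, and Gfi1 at 0.415 and 0.0727 CPM, both below the limit for a measured gene. Among genes of stem cells 11 of 14 lay above the median gene. Procr, which encodes the endothelial protein C receptor, was at 49.3 and 21.3 CPM, Ly6e, of the Ly6 family, at 17.4 and 7.01 CPM, and Hoxa5 at 33.7 and 22.2 CPM, each with runs apart.

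Matrix genes were mixed. Of 21 measured members 14 lay above the median gene, while the list median was 0.05 and, after GC adjustment, -0.07. At least 2-fold higher in G2VInt were 4, against 1.72% of all measured genes. Every G2VInt run lay above every G2VLo run for 7, against 12.5% of all measured genes. Agrn, a heparan sulfate proteoglycan gene, was at 93.8 and 44.3 CPM, Lamb2, a laminin chain gene, at 30.8 and 13.9 CPM, and Col13a1, a transmembrane collagen gene, at 9.01 and 2.71 CPM, all with runs apart. After GC adjustment their log2 ratios of 1.08, 1.14 and 1.73 became 0.76, 0.79 and 1.33. Fbn1, the fibrillin gene, was at 30.8 and 12.6 CPM with overlapping runs. The abundant Col18a1 (1383 and 852 CPM) and Col4a1 (1169 and 824 CPM) were less than 2-fold higher with runs apart, whereas the fibronectin gene Fn1 (179.9 and 167.2 CPM) and Sparc (1863 and 1844 CPM) lay below the median gene. Among ephrins and their receptors 7 of 9 lay above the median gene, and 5 of 9 lay above 0 after GC adjustment. Efnb1 was at 14.6 and 3.72 CPM.

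Interferon response genes and NF-kB targets lay on different sides. Of 12 measured interferon genes 9 lay above the median gene, with a median of 0.35: Rsad2, an antiviral enzyme gene, was at 131.1 and 86.8 CPM, and Ifitm2 and Ifitm3, which block viral entry, at 146.9 and 107.4 CPM and at 66.8 and 50.2 CPM, all with runs apart. Irf1 was the exception in size, at 24.01 and 46.8 CPM. Of 13 NF-kB targets 9 lay below the median gene, with a median of -0.27, led by Tnfrsf9, and Nfkbia, the inhibitor gene induced by the pathway, was at 168.7 and 191.6 CPM. Genes of the cell cycle did not separate the gates: 25 of 42 S phase genes and 24 of 53 genes of G2 and M phase lay above the median gene, with medians of 0.02 and -0.05. No member was 2-fold apart, against 1.72% higher and 0.347% lower among all measured genes.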

How the data were processed

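Single-cell read counts per Ensembl gene were deposited by the authors as raw counts in a table of 46078 genes and 1087 cells. The tool and build listed in the submitters' processing notes are HTSeq 0.6.0 and GRCm38. Libraries were prepared by Nextera XT for HiSeq sequencing, per the labels' protocols. The aligner, annotation release, strand setting and doublet removal are not given in the sources used here, and no doublet caller was run. Symbols from GENCODE were matched to 45229 genes, and the other 849 held 0.0743% of the counts. Every value was whole and no pair of the 461 columns used was identical.

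The members are 178 cells: 54 of the 279 G2VInt and 124 of the 472 G2VLo cells of E11.5. Of the measured genes 183 were at least 2-fold higher and 37 lower, 100 and 19 of them with no overlap between runs. Counts were summed per gate and scaled to CPM (Python 3.11.15, numpy 2.4.6, pandas 2.3.3, scipy 1.17.1, matplotlib 3.10.9). With 1 sample a gate no model was fitted. The calculation was tested on simulated data. Named genes are Gata2, Kit, Cd27 and Pecam1, the 12 highest and 12 lowest ratios (67 higher and 11 lower genes qualified) and up to 4 members of each of 47 lists farthest from the median gene, plus members that define a list. A ranked gene had to be 2-fold apart, 1.5-fold apart in the mean of per-cell CPM and without the highest cell, at 10 CPM and in 20% of thinned cells of the higher gate, and free of overlap between runs. Pseudogenes, unnamed, mitochondrial, ribosomal protein and sex-linked genes were passed over in that ranking. Some genes named in passing were chosen after their values were seen. The members and lists were chosen with earlier results of these data known. There were 25 alternatives: 14 planned, and 11 chosen after seeing the data (GC adjustment, sex by the larger signal, leaving out each run).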

Additional observations from a re-analysis of the deposited data

How the results depend on the processing

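Values are log2 ratios, or percentages of measured genes at least 2-fold apart, in the order higher, lower, higher with runs apart, lower with runs apart. The Gata2 ratio stayed above 0 in all 25 alternatives: 0.52 with TMM, 0.83 in thinned cells, 0.82 against G2VLo numbers above the CD27+ block, 1.07 and 0.93 in female and male cells by the strict rule, 0.32 after GC adjustment, and 0.61 to 0.77 without a run. The percentages of measured genes were 0.949, 0.677, 0.385 and 0.376 with TMM, 11.1, 16.6, 1.42 and 0.447 without a filter, 0.497, 0.148, 0.389 and 0.107 with the stricter filter, 8.90, 2.12, 8.33 and 2.03 against numbers above the CD27+ block, 2.97, 1.29, 2.97 and 1.25 in the lower-numbered and 4.21, 0.610, 2.74 and 0.357 in the higher-numbered libraries, 8.60, 3.67, 8.43 and 3.07 in strict female and 4.93, 2.08, 3.96 and 1.41 in strict male cells, 4.49, 1.26, 2.54 and 0.450 in cells of 500000 to 2000000 reads, 0.770, 0.657, 0.310 and 0.329 after GC adjustment, and 4.71, 1.26, 3.67 and 0.831 in female cells by larger signal. Thinning gave 2.67 higher and 1.43 with runs apart, the cells in cluster 2 of both clusterings 2.59 higher, and male cells by larger signal 2.88 higher, 0.854 lower and 0.282 lower with runs apart. Without a run they were 1.71 to 3.04, 0.395 to 0.646, 1.07 to 2.16 and 0.197 to 0.356. The immediate-early median was 0.08 in the higher-numbered libraries, 0.03 in the depth window, 0.04 in female cells by larger signal and -0.47 to -0.23 without a run. The arterial median was -0.36 in the lower-numbered and 0.26 in the higher-numbered libraries, -0.32 and -0.67 in strict female and male cells, and -0.19 to 0.07 without a run. The pan-endothelial median was -0.13 in strict female cells, -0.05 in the depth window and 0.04 to 0.18 without a run. The median of G2 and M phase was -0.14 in the mean of cells, -0.13 thinned, -0.22 in both clusterings, -0.14 in the higher-numbered libraries, -0.28 in strict male cells, -0.32 in the depth window, 0.26 and -0.29 in female and male cells by larger signal, and -0.10 to 0.01 without a run. The heat shock (-0.64 to -0.33), mitochondrial genome (-0.75 to -0.39) and interferon (0.14 to 0.51) medians kept their direction in all 25 alternatives, and the venous and lymphatic median turned only in strict female cells (-0.08). Named genes that turned were Esm1 (0.57) and Hist1h2ae (0.35) against numbers above the CD27+ block, Gja4 (-0.02), Coro1a (-0.15) and Hbb-y (-0.30) in the lower-numbered libraries, Cldn11 (-0.64), Prox1 (-0.91), Tnfrsf9 (1.06), Gja4 (-2.10), Lyve1 (-2.02), Id1 (1.28), Coro1a (-1.09) and Hbb-y (-2.25) in strict female cells, Gja4 (-3.68) and Hbb-y (-3.35) in strict male cells, Hbb-y (-0.49) in the depth window, and Zfp959 (0.08), Gja4 (-2.49), Id1 (0.64) and Nr4a1 (0.18) in female cells by larger signal. The filters set how many genes enter and the subsets hold fewer cells, and the cause of the changes was not tested. No paired analysis was possible because the gates share no library number. Runx1, Gfi1 and Cd27 were below 5 CPM, the limit for a measured gene, but above the level of 3 reads (0.024 CPM in G2VInt and 0.036 CPM in G2VLo), under which depth allows no level.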

Other observations

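Imprinted genes, which are expressed from 1 parental allele, moved in both directions. Of 16 measured members 6 lay above the median gene. Nnat, the neuronatin gene, stood at 246.2 CPM in G2VInt and 93.5 CPM in G2VLo with runs apart, Peg10, a retrotransposon-derived gene, at 66.9 and 117.6 CPM with runs apart in the other direction, and the abundant H19 at 1323 and 1034 CPM. Meg3, a long noncoding RNA, was at 58.2 and 84.5 CPM. Tmsb10 stood apart from the rest of its list of actin and thymosin genes, in which 9 of 23 lay above the median gene: its paralog Tmsb4x was at 2970 and 3216 CPM, and Actb at 21212 and 25390 CPM with all G2VInt runs below.

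Glycolysis and hypoxia genes lay mostly below the median gene, in 17 of 21 cases, with a median of -0.15. Ldha, the lactate dehydrogenase subunit gene, was at 878 and 977 CPM with runs apart, and the glucose transporter gene Slc2a1 at 474 and 528 CPM. In the BMP and TGF-beta list 11 of 23 lay above the median gene. Of its targets of the Id family, Id2 was at 80.8 and 46.5 CPM. Id1 was at 24.2 and 49.3 CPM with overlapping runs, and its log2 ratio turned to 1.28 in strict female cells and 0.64 in female cells by larger signal. In the family of cell death regulators, Bcl2, which protects cells, was at 56.3 and 72.8 CPM and Bik, which promotes death, at 61.3 and 29.98 CPM, each with runs apart. The Bik log2 ratio of 1.03 became 0.63 after GC adjustment.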
